A study of Mus musculus with 11 samples.

Results

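Integrins and laminins bind cells to the matrix around them. An integrin is a cell-surface receptor made of an alpha and a beta subunit, and a laminin is a secreted basement membrane protein made of an alpha, a beta and a gamma chain. In developing nerve and muscle, laminins line the paths of growing motor axons and the synaptic cleft of the muscle fibre, and neurons bind them through integrins and through dystroglycan. The 34 genes described here code for such subunits, 24 for integrins (16 alpha and 8 beta subunits) and 10 for laminins. They were chosen by symbol among 18193 genes, and where a gene had several probe sets the one with the highest mean over all 11 arrays was used.

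RNA was measured in motor neurons sorted by fluorescence from C57/BL6 mouse embryos, with 4 arrays of phrenic neurons, 3 of LMC radial neurons and 4 of C3-C5 GFP-only neurons. All embryos carried Hb9::GFP, a reporter that marks motor neurons through the Hb9 promoter. A rhodamine dextran carried back along the axon marked phrenic neurons, which serve the diaphragm, through the phrenic nerve, and lateral motor column (LMC) neurons through the radial nerve of the forelimb. The C3-C5 GFP-only neurons came from those cervical segments and had the reporter without the dextran. The labels give neither the day of development nor whether replicates came from separate embryos, so p-values measure the spread between these arrays. They also name no segment for the LMC radial neurons, and segment and cell type cannot be told apart there. The study's design text asks how each cell type differs from overall expression.

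Values are log2 intensities summarised per probe set by RMA, and the array medians lay between 4.48 and 4.63. Values below 5 lie near those medians and are called dim here. The 25th percentile was 3.18 to 3.20 in replicates 2 and 3 of the phrenic and C3-C5 GFP-only neurons and 3.26 to 3.38 on the other 7 arrays, which include all LMC radial arrays. The motor neuron list, of which 9 of 10 genes were measured, averaged 9.17 ± 0.14 (SD over arrays, n = 4) in phrenic, 8.71 ± 0.12 (n = 3) in LMC radial and 9.32 ± 0.08 (n = 4) among the C3-C5 GFP-only arrays. Differences are log2 values ± SE from limma, with p-values adjusted over 45037 probe sets, and a gene is called where the adjusted p is under 0.05.

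Most integrin and laminin genes did not pass the test in any of the 6 comparisons. The exceptions, against the mean of the other types, were Lama4, Itga1 and Itgae. Lama4 and Itga1 were higher in phrenic and lower in C3-C5 GFP-only neurons, and did not pass between phrenic and LMC radial neurons. Itgae was lower in phrenic and higher in LMC radial neurons. Of the 34 genes, 17 were dim in every type, and the other 17 (50%) had a mean of 5 or more in some type, as did 59.8% of all genes. The 9 genes with such a mean in every type were Itga3, Itga4, Itga6, Itgav, Itgb1, Lama1, Lama5, Lamb1 and Lamc1. Among them Itga6, Itgav and Itgb1 reached a mean of 8 in some type.

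**Figure D1:**
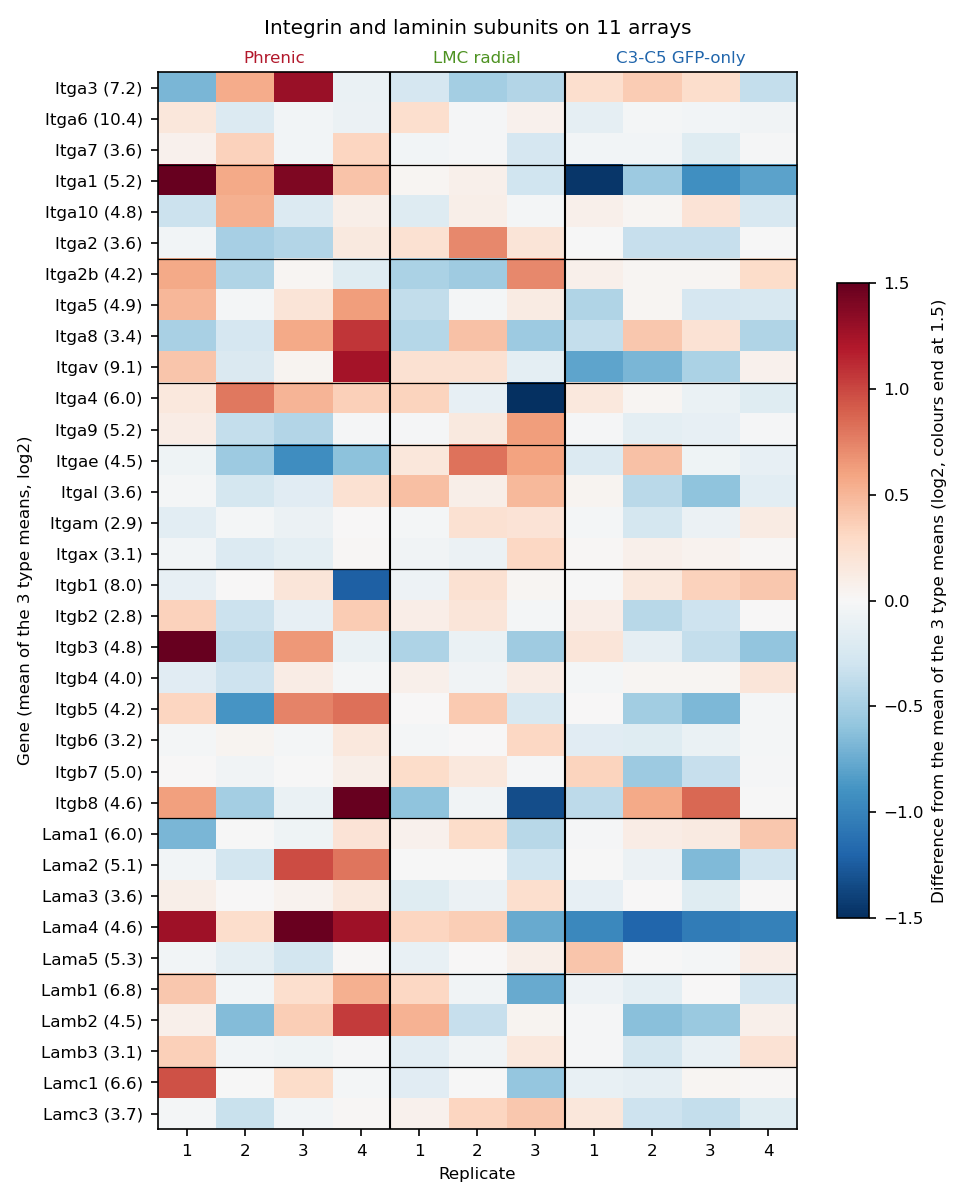
Each of the 34 genes (rows, grouped by role) on each of the 11 arrays (columns), coloured by the log2 difference from the mean of its 3 type means, which stands in brackets beside the gene. Lama4 and Itga1 are red on the 4 phrenic arrays and blue on the 4 C3-C5 GFP-only arrays.

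Against the mean of the other types, 2 of 34 genes were higher in phrenic neurons (background 3.08% of all genes) and 1 was lower (background 1.79%). There 9 genes, against 19.1% of all genes, had an unadjusted p under 0.05 in limma. For LMC radial neurons 1 was higher (background 3.40%) and 0 lower (background 3.67%), and 6 genes, against 22.3% of all genes, had an unadjusted p under 0.05 in limma. For C3-C5 GFP-only neurons 0 were higher (background 0.890%) and 2 lower (background 0.313%), with 5 genes, against 15.3% of all genes, at an unadjusted p under 0.05. In phrenic against C3-C5 GFP-only neurons 2 were higher (background 1.43%) and 0 lower (background 1.31%), with 6, against 15.1% of all genes, at an unadjusted p under 0.05. In phrenic against LMC radial neurons 0 were higher (background 3.88%) and 1 lower (background 3.00%), with 11, against 22.4% of all genes, at an unadjusted p under 0.05. In LMC radial against C3-C5 GFP-only neurons limma called 0 in either direction (backgrounds 1.70% and 2.03%), and 6 genes, against 19.0% of all genes, had an unadjusted p under 0.05. With 34 genes, shares of this size rest on 1 or 2 genes each.

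The median difference of the 34 genes between phrenic and C3-C5 GFP-only neurons was 0.15, against 0.01 over all genes, and 24 of them lay above 0, as did 51.3% of all genes. Between phrenic and LMC radial neurons the median was 0.08, against -0.0048 over all genes, and 19 lay above 0, as did 49.3% of all genes. Between LMC radial and C3-C5 GFP-only neurons it was 0.10, against 0.0059 over all genes, and 20 lay above 0, as did 50.9% of all genes.

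Lama4 codes for the laminin alpha chain found in the basement membranes of blood vessels, peripheral nerve and the neuromuscular synapse. Its values were 5.89, 4.88, 6.10 and 5.89 in phrenic, 4.94, 4.98 and 3.87 in LMC radial, and 3.65, 3.43, 3.57 and 3.60 in C3-C5 GFP-only neurons. Every phrenic and LMC radial array lay above every C3-C5 GFP-only array, while the phrenic and LMC radial arrays overlapped. All phrenic arrays lay above all C3-C5 GFP-only arrays in 4.85% of all genes. All C3-C5 GFP-only arrays lay below all others in 1.06% of all genes. The group means were 5.69 ± 0.55 (SD, n = 4), 4.60 ± 0.63 (n = 3) and 3.56 ± 0.09 (n = 4) in that order. Lama4 was higher in phrenic than in C3-C5 GFP-only neurons by 2.13 ± 0.29 (limma adjusted p = 0.00369), at least 1.65-fold when values below 5 are raised to 5. It was also higher in phrenic neurons than in the mean of the other types (1.61 ± 0.26, adjusted p = 0.00547) and lower in C3-C5 GFP-only neurons than in the mean of the others (-1.58 ± 0.26, adjusted p = 0.0204). Its differences of 1.09 ± 0.31 between phrenic and LMC radial neurons (adjusted p = 0.0666) and 1.03 ± 0.31 between LMC radial and C3-C5 GFP-only neurons (adjusted p = 0.0997) did not pass. The other Lama4 probe set was dim, with means of 2.82, 3.16 and 2.75 in phrenic, LMC radial and C3-C5 GFP-only neurons, and its difference between phrenic and C3-C5 GFP-only neurons was 0.07 (adjusted p = 0.93).

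Itga1 codes for an alpha subunit that pairs with Itgb1 and binds collagens, collagen IV of basement membranes among them, and laminin. Its values were 6.77, 5.74, 6.57 and 5.60 in phrenic, 5.20, 5.26 and 4.87 in LMC radial, and 3.71, 4.63, 4.26 and 4.37 in C3-C5 GFP-only neurons. The 3 types did not overlap, with phrenic arrays highest and C3-C5 GFP-only arrays lowest. All phrenic arrays lay above all others in 2.87% of all genes, and all C3-C5 GFP-only arrays lay below all others in 1.06%. The means were 6.17 ± 0.59 (SD, n = 4), 5.11 ± 0.21 (n = 3) and 4.24 ± 0.39 (n = 4). Itga1 was higher in phrenic than in C3-C5 GFP-only neurons by 1.93 ± 0.28 (limma adjusted p = 0.00521), at least 2.25-fold, and higher than in the mean of the other types by 1.49 ± 0.25 (adjusted p = 0.0066). Against the mean of the others Itga1 was lower in C3-C5 GFP-only neurons (-1.40 ± 0.25, adjusted p = 0.0292), but with the replicate number as a block this was -1.36 with an adjusted p of 0.0689. The differences between phrenic and LMC radial neurons (1.06 ± 0.30, adjusted p = 0.0631) and between LMC radial and C3-C5 GFP-only neurons (0.87 ± 0.30, adjusted p = 0.142) did not pass. A second, dim probe set of Itga1 differed by 0.71 between phrenic and C3-C5 GFP-only neurons (adjusted p = 0.29). Pelo, a ribosome rescue factor whose gene lies within the Itga1 interval, differed by 0.30 ± 0.16 in that comparison (adjusted p = 0.501).

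**Figure D2:**
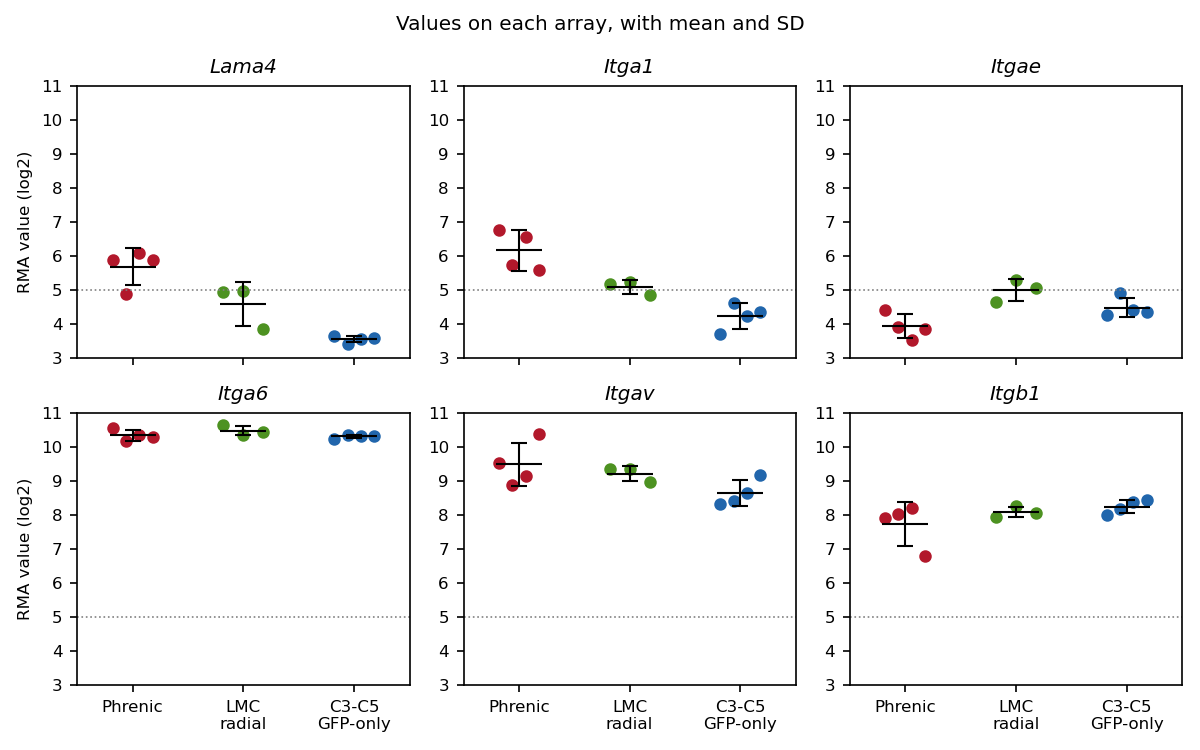
Log2 RMA values of 6 genes on each array (points), with the mean and SD of each type (bars), and a dotted line at 5. Phrenic arrays of Lama4 and Itga1 lie above all C3-C5 GFP-only arrays, phrenic arrays of Itgae lie below all LMC radial arrays, and the types lie close together for Itga6.

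The calls of Lama4 and Itga1 between phrenic and C3-C5 GFP-only neurons held with any single array left out, up to adjusted p-values of 0.0176 for Lama4 and 0.0219 for Itga1. They were lost on the 7 arrays whose 25th percentile was 3.26 or more (2.26 and 2.14, adjusted p = 0.0874 and 0.109) and with values below 5 raised to 5 (0.72 and 1.17, adjusted p = 0.218 and 0.0917). In both settings the calls of these genes in phrenic and in C3-C5 GFP-only neurons against the mean of the others were lost too. The 7 arrays hold only replicates 1 and 4 of the phrenic and of the C3-C5 GFP-only neurons, and both differences were larger there. With this array set as a covariate and all arrays kept, both calls held (2.13 and 1.93, adjusted p = 0.00507 and 0.00733). The calls against the mean of the others held there too (highest adjusted p 0.0403). Without phrenic replicate 4 the difference of Itga1 between phrenic and LMC radial neurons passed (adjusted p = 0.0224), and without phrenic replicate 2 that of Lama4 did (adjusted p = 0.0169). Without phrenic replicate 2 or LMC radial replicate 3 the difference of Lama4 between LMC radial and C3-C5 GFP-only neurons passed as well (adjusted p = 0.0468 and 0.0371). The lower level in C3-C5 GFP-only neurons against the mean of the others was lost for both genes without C3-C5 GFP-only replicate 2, 3 or 4 or LMC radial replicate 1 or 2, and for Itga1 also without C3-C5 GFP-only replicate 1 (highest adjusted p 0.0917 for Lama4 and 0.121 for Itga1).

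Like Lama4 and Itga1, the mean of the mesenchyme and cartilage markers was lower on every C3-C5 GFP-only array than on any other array. The mean of the 18 listed genes was 5.27, 4.91, 5.87 and 6.31 on the phrenic, 5.51, 5.72 and 4.72 on the LMC radial, and 4.23, 4.48, 4.45 and 4.44 on the C3-C5 GFP-only arrays. Among the phrenic arrays replicate 4 had the highest list mean and the lowest Itga1 value. Lama4 and the list mean were both lowest on phrenic replicate 2, while Lama4 was highest on phrenic replicate 3. Among the LMC radial arrays the list mean, Lama4 and Itga1 were all highest on replicate 2 and lowest on replicate 3. Of the 18 listed genes, 10 had a mean of 5 or more in some type. In limma 2 were higher in phrenic than in C3-C5 GFP-only neurons (background 1.43%). Against the mean of the others, 2 were higher in phrenic (background 3.08%) and 2 in LMC radial neurons (background 3.40%). In C3-C5 GFP-only neurons 1 was lower than in the mean of the others (background 0.313%). Col1a1, a fibrillar collagen chain of mesenchyme, averaged 8.57 in phrenic, 7.56 in LMC radial and 6.14 in C3-C5 GFP-only neurons. With the list mean as a covariate the difference between phrenic and C3-C5 GFP-only neurons was 1.20 for Lama4 (adjusted p = 0.175) and 1.82 for Itga1 (adjusted p = 0.155). The calls against the mean of the others were lost too, at 1.04 in phrenic (adjusted p = 0.051) and -0.76 in C3-C5 GFP-only neurons (adjusted p = 0.41) for Lama4, and at 1.43 (adjusted p = 0.0662) and -1.31 (adjusted p = 0.322) for Itga1. Without the covariate these differences were 2.13, 1.61 and -1.58 for Lama4 and 1.93, 1.49 and -1.40 for Itga1. Between phrenic and C3-C5 GFP-only neurons the covariate took the SE from 0.29 to 0.32 for Lama4 and from 0.28 to 0.47 for Itga1. The difference of Lama4 between phrenic and LMC radial neurons passed with the covariate (0.88 ± 0.22, adjusted p = 0.0428), against 1.09 ± 0.31 without it. Because the list mean was lowest on every C3-C5 GFP-only array, this fit cannot tell the list apart from the cell type. The part of such cells in the results was not tested, and in RNA of pooled sorted cells fewer cells of a type and less RNA per cell cannot be told apart. Endothelial and mural markers, 15 genes with array means of 3.97 to 4.80 in phrenic, 4.15 to 4.64 in LMC radial and 3.79 to 4.13 in C3-C5 GFP-only neurons, gave 0 calls in every comparison by limma. Of the 15 genes, 5 had a mean of 5 or more in some type, and the list's median difference between phrenic and C3-C5 GFP-only neurons was 0.35. Array means of this list were lower on all C3-C5 GFP-only than on all LMC radial arrays, and the phrenic arrays overlapped both. Pecam1 and Cdh5, which mark endothelium itself, were among the listed genes that were dim in every type. In phrenic, LMC radial and C3-C5 GFP-only neurons Pecam1 was at 3.63, 3.68 and 3.46 and Cdh5 at 3.99, 3.84 and 3.58. These genes do not stand for the whole list, and the part of vessel cells in the results was not tested. The 7 Schwann cell and neural crest markers measured ranged over array means of 5.06 to 6.91, 5.22 to 5.86 and 5.25 to 5.30 in the same order, with 0 called in every comparison. The 10 progenitor and radial glia markers ranged over 6.30 to 7.62, 6.16 to 6.65 and 6.00 to 6.20. Of these 10, 1 gene, Slc1a3, was higher in phrenic than in C3-C5 GFP-only neurons (background 1.43% of all genes).

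**Figure D3:**
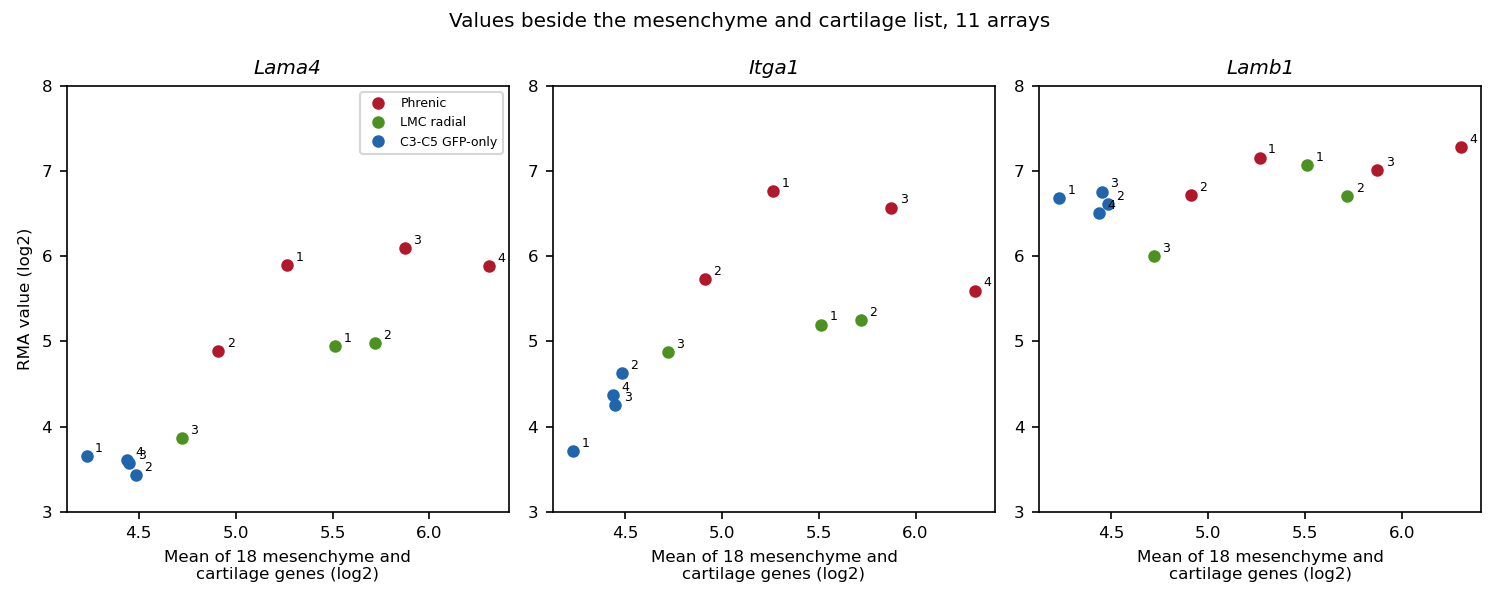
Log2 values of Lama4, Itga1 and Lamb1 (vertical axis) against the mean of 18 mesenchyme and cartilage genes on the same array (horizontal axis), with replicate numbers beside the points. The 4 C3-C5 GFP-only arrays lie between 4.23 and 4.48 on the horizontal axis, below all others.

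The stretch of 250 bases before the start of Itga1 is shown because this gene was called and has an entry among RefSeq promoters (GRCm38.p6), and that of Lamb1, whose adjusted p passed in no comparison, stands beside it. Itga1 lies on the minus strand (chr13:115101965-115102214) and Lamb1 on the plus strand (chr12:31265043-31265292). Both run 5′ to 3′ along the gene, and capitals mark the E box letters CANNTG, which read the same on both strands.
Itga1: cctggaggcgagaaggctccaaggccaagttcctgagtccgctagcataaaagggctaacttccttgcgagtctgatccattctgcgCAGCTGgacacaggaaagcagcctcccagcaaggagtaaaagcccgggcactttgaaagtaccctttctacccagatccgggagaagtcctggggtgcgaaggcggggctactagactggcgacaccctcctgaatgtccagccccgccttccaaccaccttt
Lamb1: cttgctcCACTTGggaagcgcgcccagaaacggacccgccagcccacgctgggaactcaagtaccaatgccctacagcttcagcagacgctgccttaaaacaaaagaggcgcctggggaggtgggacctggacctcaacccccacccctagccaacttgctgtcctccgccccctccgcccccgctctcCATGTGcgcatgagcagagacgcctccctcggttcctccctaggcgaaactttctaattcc
The Itga1 stretch held 1 E box and the Lamb1 stretch 2. Of the 34 genes 22 had an entry, and 17 of these (77.3%) held an E box, against 66.0% of 27025 genes. The GC box GGGCGG, searched on both strands, was in 8 of 22 (36.4%) against 32.9% of all genes, and TATAAA was in 0 of 22 against 13.0%. Their median GC content was 58%, against 52% over all genes. These are letter matches in a window and say nothing of binding.

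The other laminin chains did not pass in any comparison. Lama1, the early embryonic alpha chain, averaged 5.91 ± 0.38 in phrenic (SD, n = 4), 6.02 ± 0.36 in LMC radial (n = 3) and 6.21 ± 0.18 in C3-C5 GFP-only neurons (n = 4). Lama2, the chain of muscle and Schwann cell basement membranes, averaged 5.44 ± 0.62, 4.97 ± 0.17 and 4.81 ± 0.29 in the same order, and Lama5 5.16 ± 0.13, 5.26 ± 0.10 and 5.39 ± 0.20. Lamb1 and Lamc1, the widely used beta and gamma chains, averaged 7.04 ± 0.24 and 6.93 ± 0.46 in phrenic, 6.59 ± 0.54 and 6.38 ± 0.30 in LMC radial, and 6.64 ± 0.11 and 6.58 ± 0.08 in C3-C5 GFP-only neurons. Lama3, Lamb2, Lamb3 and Lamc3 were dim in every type.

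Among receptors that bind laminin, Itga6 had 10.54, 10.17, 10.33 and 10.29 in phrenic, 10.63, 10.36 and 10.43 in LMC radial, and 10.24, 10.35, 10.33 and 10.32 in C3-C5 GFP-only neurons. These values span less than 1 log2 unit, and the phrenic arrays overlapped both other types. Each LMC radial array of Itga6 lay slightly above the C3-C5 GFP-only arrays, as in 11.2% of all genes. Its differences were 0.02 ± 0.11 between phrenic and C3-C5 GFP-only neurons and -0.14 ± 0.11 between phrenic and LMC radial neurons, and LMC radial minus C3-C5 GFP-only neurons was 0.17 ± 0.11. Itga3, another laminin receptor subunit, averaged 7.44 ± 0.85 in phrenic, 6.78 ± 0.13 in LMC radial and 7.31 ± 0.33 in C3-C5 GFP-only neurons, and Itga7, the laminin receptor subunit of muscle, was dim.

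Itgb1, the partner of most laminin- and collagen-binding alpha subunits, had 7.89, 8.02, 8.20 and 6.79 in phrenic, 7.94, 8.25 and 8.05 in LMC radial, and 8.01, 8.18, 8.36 and 8.42 in C3-C5 GFP-only neurons. The low value of phrenic replicate 4 stands apart from the other 10, and the remaining arrays overlapped between types. The difference between phrenic and C3-C5 GFP-only neurons was -0.51 ± 0.26 (adjusted p = 0.461). Of the other beta subunits, Itgb3, a partner of Itgav, reached 7.07 on phrenic replicate 1 and averaged 5.44 ± 1.17 in phrenic, 4.48 ± 0.23 in LMC radial and 4.62 ± 0.33 in C3-C5 GFP-only neurons. Itgb7, the partner of Itgae, had its highest type mean, 5.13 ± 0.15 (SD, n = 3), in LMC radial neurons, and Itgb2, Itgb4, Itgb5, Itgb6 and Itgb8 were dim in every type.

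Itgav, which binds the RGD motif of fibronectin and vitronectin, had 9.52, 8.89, 9.15 and 10.36 in phrenic, 9.34, 9.33 and 8.95 in LMC radial, and 8.31, 8.42, 8.63 and 9.17 in C3-C5 GFP-only neurons. The types overlapped, and the difference of 0.85 ± 0.29 between phrenic and C3-C5 GFP-only neurons did not pass (adjusted p = 0.219). Itga5, the fibronectin receptor subunit, had 5.36, 4.83, 5.06 and 5.49 in phrenic, 4.50, 4.83 and 4.99 in LMC radial, and 4.41, 4.89, 4.62 and 4.62 in C3-C5 GFP-only neurons. Phrenic replicate 2 lay within the range of both other types, and the difference from C3-C5 GFP-only neurons was 0.55 ± 0.17 (adjusted p = 0.159). Itga4, which binds fibronectin and Vcam1, averaged 6.45 ± 0.27 in phrenic, 5.56 ± 0.95 in LMC radial and 5.97 ± 0.15 in C3-C5 GFP-only neurons. Itga9 averaged 4.99 ± 0.26, 5.41 ± 0.33 and 5.09 ± 0.07 in that order, and Itga8 and Itga2b were dim.

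Itgae codes for the alpha subunit that pairs with Itgb7 on T cells of epithelia and binds E-cadherin. Its values were 4.42, 3.93, 3.55 and 3.87 in phrenic, 4.65, 5.29 and 5.08 in LMC radial, and 4.27, 4.92, 4.42 and 4.36 in C3-C5 GFP-only neurons. Every phrenic array lay below every LMC radial array, as in 10.2% of all genes, while the LMC radial and C3-C5 GFP-only arrays overlapped, and most of these values are dim. Itgae was lower in phrenic than in LMC radial neurons (-1.06 ± 0.23, limma adjusted p = 0.02), by at least 1.09-fold with values below 5 raised to 5. Against the mean of the other types it was -0.81 ± 0.19 in phrenic neurons (adjusted p = 0.0404) and 0.79 ± 0.20 in LMC radial neurons (adjusted p = 0.0422), and with the replicate number as a block these had adjusted p-values of 0.0676 and 0.067. The call between phrenic and LMC radial neurons was lost without LMC radial replicate 2 or 3 (highest adjusted p 0.0866), on the arrays of these 2 types alone (adjusted p = 0.0631), on the 7 arrays named above (-0.86, adjusted p = 0.156), with the array set as a covariate (adjusted p = 0.054) and with values below 5 raised to 5 (-0.12, adjusted p = 0.477). With 1 array left out, the call against the mean of the others held in 2 of 11 fits for phrenic neurons (highest adjusted p 0.106) and in 4 of 11 for LMC radial neurons (highest adjusted p 0.176). The probe set has a suffix for probes that may match several transcripts, and the other Itgae probe set differed by -0.51 (adjusted p = 0.18).

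Ptprc, which marks all leukocytes, was dim in every type, with means of 4.04 in phrenic, 3.40 in LMC radial and 2.94 in C3-C5 GFP-only neurons. The 12 macrophage and microglia markers averaged 3.41, 3.36, 4.66 and 4.63 on phrenic replicates 1 to 4. Their means were 3.60 to 3.85 on LMC radial and 3.42 to 3.67 on C3-C5 GFP-only arrays, so phrenic replicates 3 and 4 lay above all other arrays. Of these 12 markers 2 had a mean of 5 or more in some type, and limma called 0 in every comparison. Itgal, Itgam and Itgax, the other leukocyte alpha subunits measured, were also dim. Itgal had 4.05, 3.68 and 4.08 in LMC radial, 3.58, 3.34, 3.43 and 3.83 in phrenic, and 3.65, 3.20, 3.00 and 3.44 in C3-C5 GFP-only neurons. LMC radial arrays lay above all C3-C5 GFP-only arrays, as in 11.2% of all genes, and that difference was 0.62 ± 0.18 (adjusted p = 0.086). Itga2, a collagen receptor subunit, had 3.81, 4.30 and 3.78 in LMC radial, 3.54, 3.08, 3.14 and 3.73 in phrenic, and 3.58, 3.23, 3.24 and 3.57 in C3-C5 GFP-only neurons. All LMC radial arrays lay above the rest, as in 5.33% of all genes, and the difference from the mean of the others was 0.57 ± 0.17 (adjusted p = 0.0741). Dim genes as a whole leaned the same way, with 68.1% of 7307 above 0 in LMC radial neurons against the mean of the others, and 10 of the 17 dim integrin and laminin genes. Itga10 was dim in every type.

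**Figure D4:**
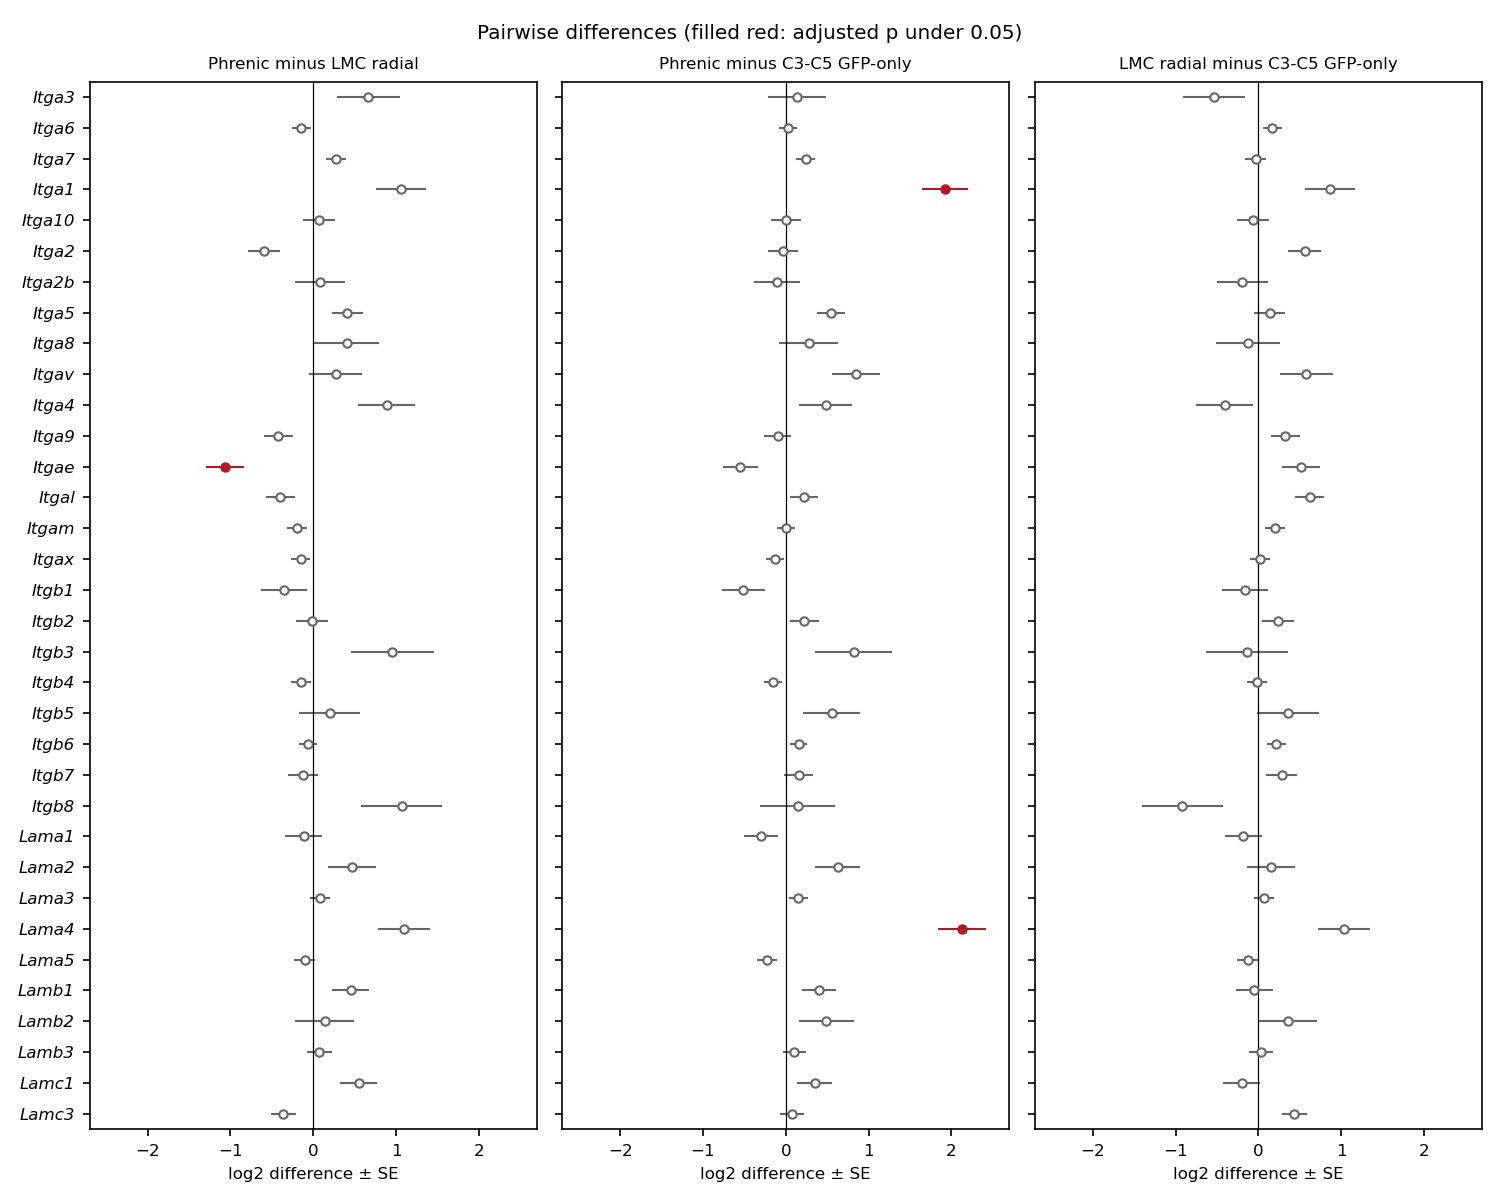
Log2 difference ± SE of each of the 34 genes in the 3 pairwise comparisons, with filled red points where the adjusted p is under 0.05. Lama4 (2.13) and Itga1 (1.93) are filled between phrenic and C3-C5 GFP-only neurons, and Itgae (-1.06) between phrenic and LMC radial neurons, where Lama4 (1.09), Itgb8 (1.07) and Itga1 (1.06) differ by as much without passing.

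Of the partners of laminin in basement membranes and its receptors outside the integrins, 17 genes were measured and 2 were higher in phrenic than in C3-C5 GFP-only neurons, with 0 lower (backgrounds 1.43% and 1.31% of all genes). Nid1, which links laminin to collagen IV, had 8.61, 7.24, 8.48 and 9.29 in phrenic, 8.03, 7.94 and 6.95 in LMC radial, and 6.07, 6.36, 6.67 and 6.21 in C3-C5 GFP-only neurons. Every phrenic and LMC radial array lay above all C3-C5 GFP-only arrays, as in 1.06% of all genes. The difference of Nid1 between phrenic and C3-C5 GFP-only neurons was 2.08 ± 0.39 (limma adjusted p = 0.02). Col4a1, a collagen IV chain, differed by 1.79 ± 0.36 (adjusted p = 0.0321). Fbln1, a basement membrane glycoprotein, was lower in phrenic than in LMC radial neurons (-1.38 ± 0.31, adjusted p = 0.0235). Dag1, which codes for dystroglycan, averaged 8.97 in phrenic, 8.87 in LMC radial and 8.96 in C3-C5 GFP-only neurons.

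Of the integrin ligands other than laminins, 15 of 19 listed genes were measured and 1 was higher in phrenic than in C3-C5 GFP-only neurons, with 0 lower (the same backgrounds, 1.43% and 1.31%). This was Fn1, fibronectin (1.49 ± 0.26, adjusted p = 0.0148). The mean of the mesenchyme list was lowest on the C3-C5 GFP-only arrays, and its part in the differences of Nid1, Col4a1 and Fn1 was not tested. Tgfb2, whose protein belongs to a growth factor family held latent in the matrix, was higher in phrenic than in LMC radial neurons (1.47 ± 0.15, adjusted p = 0.0002) and lower in LMC radial than in C3-C5 GFP-only neurons (-0.96 ± 0.15, adjusted p = 0.00638). Of the listed effectors of integrin adhesion, 27 of 29 were measured. Among these, 2 were higher in phrenic than in C3-C5 GFP-only neurons (background 1.43%) and 3 higher in phrenic than in LMC radial neurons (background 3.88%), with 0 lower in either. Parva, an actin-binding partner of integrin-linked kinase, differed by 0.73 ± 0.14 (adjusted p = 0.0244) and 0.61 ± 0.15 (adjusted p = 0.0385) in these comparisons. Actn1, an actin crosslinker at adhesions, differed by 0.62 ± 0.13 (adjusted p = 0.0401) and 0.91 ± 0.14 (adjusted p = 0.00388), and Lims1, a partner of integrin-linked kinase, by 0.57 ± 0.15 against LMC radial neurons (adjusted p = 0.0448). The medians of the 3 lists between phrenic and C3-C5 GFP-only neurons were 0.18, 0.35 and -0.01, against 0.01 over all genes.

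Of the 39 probe sets of these genes that were not chosen, 33 were dim in every type and 3 were called in some comparison. No share over all probe sets is given beside that count. Among the 6 probe sets of Itgb1, a dim one had means of 2.38 in phrenic, 3.34 in LMC radial and 2.45 in C3-C5 GFP-only neurons and was lower in phrenic than in LMC radial neurons (-0.97 ± 0.22, adjusted p = 0.0262). The chosen Itgb1 probe set differed by -0.35 ± 0.28 there, and 2 others ran the other way without passing (0.76 and 0.84, adjusted p = 0.258 and 0.163). A dim Itga8 probe set was higher in LMC radial neurons than in the mean of the others (0.57 ± 0.14, adjusted p = 0.0337), whereas the chosen one was at -0.27 (adjusted p = 0.694). A dim Itga9 probe set was lower in LMC radial than in C3-C5 GFP-only neurons (-0.78 ± 0.19, adjusted p = 0.0463). Of the other Itga9 probe sets, the chosen one was at 0.32 (adjusted p = 0.33) and the remaining one at -1.34 (adjusted p = 0.154). The probe sets of these 3 genes thus disagreed in direction.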

How the data were processed

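The deposited values are log2 intensities per probe set that the authors computed with RMA, per the submitters' processing notes, which give no software version. RMA subtracts background, forces the arrays' probe distributions to match and combines the probes of a set into 1 value, so small shifts shared by all probes are removed. Probe sets were named from GEO's platform annotation. After 64 control probe sets were left out, 45037 were tested, of which 34945 had 1 symbol, 932 several and 9160 none. All 34 symbols equal current RefSeq symbols. Groups follow the sample titles.

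The model, run in R 4.3.3 with limma 3.58.1, had 1 mean for each type and moderated two-sided tests (8 residual and 2.92 prior degrees of freedom). The 6 comparisons set each type against the unweighted mean of the others and against each other type. Adjustment by the method of Benjamini and Hochberg ran over all probe sets of a comparison. Background shares are over 18193 genes with 1 probe set each. The fit was tested on simulated data. The number of arrays limits the precision.

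Genes given per array were those called in any comparison, those with a mean of 8 or more in some type, and the 3 with the smallest p per comparison. From the other lists, those called and up to 4 with the smallest p were eligible. Members and lists were chosen with earlier results of these data known. Levels of different probe sets are not compared.

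Replicate numbers served as a block in an alternative fit only. Same-numbered deviations from the group means of phrenic and C3-C5 GFP-only arrays correlated in all 4 pairs (r = 0.13 to 0.22). Other-numbered pairs ranged between -0.25 and 0.28. Phrenic replicate 2 with C3-C5 GFP-only replicate 3 (0.27), 3 with 2 (0.28), 1 with 4 (0.19) and 4 with 1 (0.18) correlated about as much. A pairing by number thus cannot be told from a split of replicates 1 and 4 from 2 and 3. For phrenic and LMC radial arrays the same-numbered r was -0.03 to 0.01. Alternatives covered normalization, centring, dim values, the variance prior, array weights, the replicate block, the choice of probe set, array sets, a mesenchyme covariate and left-out arrays.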

Additional observations from a re-analysis of the deposited data

Results flagged for a closer look

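Of 68 sets of 4 arrays, 1 per gene in the phrenic and the C3-C5 GFP-only neurons, 2 held an array far from its replicates by Dixon's test, a test that flags about 1 in 20 by chance. Lamb3 in phrenic replicate 1 was 3.50, with the other phrenic arrays between 3.08 and 3.14. Lamc3 in phrenic replicate 2 was 3.37, with the others between 3.66 and 3.72. Both genes were dim in every type.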

How the results depend on the processing

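In the fit as reported, 3, 1, 2, 2, 1 and 0 of 34 genes were called for phrenic, LMC radial and C3-C5 GFP-only neurons against the mean of the others, phrenic against C3-C5 GFP-only, phrenic against LMC radial, and LMC radial against C3-C5 GFP-only neurons. No called difference of a named gene reversed under any alternative. With values below 5 raised to 5, and on the 7 arrays whose 25th percentile was 3.26 or more, the first 5 counts were 0. With the mesenchyme covariate, phrenic and C3-C5 GFP-only neurons against the others and phrenic against C3-C5 GFP-only gave 0, and phrenic against LMC radial gave 2. With the array set as a covariate, LMC radial against the others and phrenic against LMC radial gave 0. Array weights gave 4 for LMC radial against the others, 3 for phrenic against LMC radial and 5 for LMC radial against C3-C5 GFP-only. With the replicate block the counts were 2 for LMC radial against the others (Itga2, Itgal), 1 for C3-C5 GFP-only against the others (Lama4) and 1 for LMC radial against C3-C5 GFP-only (Itgal), and the block kept the calls of Lama4 and Itga1 between phrenic and C3-C5 GFP-only neurons (adjusted p = 0.017 and 0.0256). Fits of 2 types only gave 0 for phrenic against LMC radial and 2 for LMC radial against C3-C5 GFP-only, and the mean of a gene's probe sets gave 1 for the last. Without phrenic replicates 1 and 4 together, LMC radial against the others and phrenic against LMC radial gave 5 each. With 1 array left out the counts ranged over 2 to 3, 0 to 3, 0 to 2, 2 to 2, 0 to 3 and 0 to 1 in the order above. Shares over all genes are given only for the fit as reported, so these shifts cannot be read as particular to integrin and laminin genes. The cause of these shifts was not tested. Values below 5 limit what can be said of dim genes.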
